A study of Mus musculus with 10 samples.

Results

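The 10 genes described here build the respiratory chain: Ndufaf1, Ecsit, Acad9, Nubpl and Foxred1 for complex I, Sdhaf1 for complex II, Bcs1l and Ttc19 for complex III, Surf1 for complex IV and Atpaf1 for complex V. They were chosen by gene symbol and not by a rule on their values, but with earlier results of these data known. They make up 10 of the 18138 symbols in the array table, in which Sdhaf1 carries its older name 0610010E21Rik. Expression was measured in total RNA of the ileum, the end of the small intestine, in 5 samples with the genotype label iPGC-1β and 5 wild-type samples. The mice were FVB/N and 3 to 4 months old, with littermates as wild-type, and the labels number the samples without stating that each is a separate mouse. Ppargc1b encodes PGC-1β, which coactivates transcription of mitochondrial genes. Work on such mice uses iPGC-1β for a PGC-1β transgene expressed in intestinal epithelium, but the labels give neither promoter nor construct, and no treatment is recorded. Illumina arrays gave 1 signal per probe and array, and 5 arrays a group limit the precision of every value.

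The complexes of the respiratory chain are put together from many subunits, and assembly factors are proteins that bind the growing complexes without staying in the finished enzyme. NDUFAF1, ECSIT and ACAD9 work together in the MCIA complex, which joins membrane parts of complex I. NUBPL delivers iron-sulfur clusters to complex I and FOXRED1 is an FAD-dependent factor of the same complex. SDHAF1 helps to load iron-sulfur clusters into SDHB of complex II, BCS1L inserts the Rieske iron-sulfur protein into complex III and TTC19 clears fragments of that protein. SURF1 acts early in building cytochrome c oxidase, complex IV, and ATPAF1 is a chaperone of the beta subunit of ATP synthase, complex V. The small intestine relies on this machinery to fuel uptake of nutrients.

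The promoters are shown because 6 of these genes rose together in the comparison that follows, and Surf1, which holds one of the same motifs, did not pass the test. For 9 of the 10 genes RefSeq gives a window of 300 bases on GRCm38.p6, from 250 bases before the transcript start to 50 after it. These windows were searched on both strands for the element of the estrogen-related receptors, partners of PGC-1 coactivators (TNAAGGTCA), its core AAGGTCA, which the longer element contains, the core of NRF1 (GCATGCGC) and the core of GABP and other ETS factors (CCGGAAG). The GABP core was found in 5 of the 9 genes, Ndufaf1, Ecsit, Sdhaf1, Bcs1l and Surf1. Of all 27025 genes with windows, 9.93% hold it in at least 1 window. The NRF1 core was found in Ttc19 alone of the 9 genes and is held by 3.05% of all genes. The windows of the 9 genes were 45.3% to 72.3% G and C, where the median window had 52.7%, and the shares were not matched for this. The receptor element (1.43% of all genes) and its core (5.38%) matched none of the 9 genes, which says only that these letters are not in these windows. The stretch from 80 bases before to 20 after the start follows for the 6 genes with a match. The match is in capitals and is a description, not a shown binding site.
Ndufaf1, chr2:119662815-119662914, minus strand: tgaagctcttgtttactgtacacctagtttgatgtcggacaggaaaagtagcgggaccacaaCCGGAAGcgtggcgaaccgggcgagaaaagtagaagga
Ecsit, chr9:22085408-22085507, minus strand: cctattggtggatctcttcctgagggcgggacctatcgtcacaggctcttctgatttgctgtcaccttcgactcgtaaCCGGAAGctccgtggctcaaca
Sdhaf1, chr7:30322356-30322455, minus strand: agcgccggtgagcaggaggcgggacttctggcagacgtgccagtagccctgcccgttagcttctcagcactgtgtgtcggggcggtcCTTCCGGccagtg
Bcs1l, chr1:74588209-74588308, plus strand: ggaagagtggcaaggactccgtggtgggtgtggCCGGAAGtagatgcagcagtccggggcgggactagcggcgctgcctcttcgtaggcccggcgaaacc
Surf1, chr2:26916511-26916610, minus strand: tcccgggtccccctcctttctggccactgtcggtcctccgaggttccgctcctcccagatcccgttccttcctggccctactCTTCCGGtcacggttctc
Ttc19, chr11:62281393-62281492, plus strand: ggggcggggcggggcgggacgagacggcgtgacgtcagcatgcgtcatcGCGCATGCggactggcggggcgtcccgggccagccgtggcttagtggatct

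The matches all lie near the transcript start. The first base of the GABP core was at -47 in Bcs1l, -18 in Ndufaf1, -2 in Ecsit, 3 in Surf1 and 8 in Sdhaf1, counted from 1 at the first transcribed base with no 0. It is read on the strand of the gene in Bcs1l, Ndufaf1 and Ecsit and on the opposite strand in Surf1 and Sdhaf1. In Ttc19 the NRF1 core begins at -31 on the opposite strand. The window of Foxred1 and those of Nubpl and Atpaf1 held none of the 4 motifs.

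Of 9365 genes tested across the array, 9.88% were higher and 7.41% lower in iPGC-1β ileum at an adjusted p under 0.05 by limma, with Benjamini-Hochberg adjustment over all of them. This balance depends on the scaling: with median centring in place of quantile normalization 7.96% were higher and 8.20% lower. On each array between 12370 and 12771 of 25697 probes were above background (detection p under 0.05), and correlations between arrays were 0.959 to 0.982 within the iPGC-1β group, 0.962 to 0.987 within the wild-type group and 0.923 to 0.969 across groups. The single Ppargc1b probe averaged 7.70 ± 0.41 in iPGC-1β and 8.32 ± 0.22 in wild-type ileum (log2 intensity, SD, n = 5 each), a log2 difference of -0.61 with adjusted p = 0.0452 by limma. Under 22 alternative settings the difference stayed negative, between -0.93 and -0.43, and the adjusted p missed the threshold in 10. Which part of the transcript it reads is not known here, so it does not check the labels, and every direction rests on the arrays as labelled. Most measured markers of absorptive enterocytes were above background on every array, among them Vil1 at 13.22 in iPGC-1β and 13.66 in wild-type ileum, while Slc15a1, Slc2a5 and Ace were near background and detected on only some arrays. Of 18 measured enterocyte markers 7, Slc15a1 among them, were lower and 0 higher. The mean level of the 18 per array ran from 10.41 to 11.01 in iPGC-1β and from 10.77 to 11.57 in wild-type ileum (exact permutation p = 0.0238). Slc15a1 was above background on 2 iPGC-1β and 5 wild-type arrays. It met the requirement of detection on at least 5 arrays only through the wild-type group. The mean of 5 goblet cell markers ran from 10.84 to 11.18 in iPGC-1β and from 11.13 to 11.23 in wild-type ileum, with the same exact permutation p = 0.0238, and 1 of the 5, Spdef, was lower. Means of Paneth cell, enteroendocrine, smooth muscle, B cell and T cell markers gave exact permutation p from 0.246 to 0.889, and none of their genes was called. The mean of 4 T cell markers still had a log2 difference of -0.66, larger in size than the -0.56 of the enterocyte mean. The T cell mean ran from 5.75, on iPGC-1β replicate 3, to 8.26 in iPGC-1β and from 7.83 to 8.91 in wild-type ileum. The part of cell composition in the results was not tested beyond the covariate given next.

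Of the 10 assembly factor genes, 8 were measured above background and tested. Of these 8, 6 rose in iPGC-1β ileum and 0 fell, beside 9.88% and 7.41% of all tested genes. The other 2, Acad9 and Surf1, did not pass the test. The 6 that rose are Sdhaf1, Ecsit, Foxred1, Ndufaf1, Bcs1l and Ttc19, with log2 differences between 0.56 and 1.74. In each of the 6 all iPGC-1β arrays lay above all wild-type arrays, which held for 8.66% of all tested genes, and none had the opposite order, which held for 5.62%. The median log2 difference of the 8 was 0.63 and that of all tested genes was -0.053. Nubpl and Atpaf1 were not above background on any array. In a whole tissue, fewer cells of a type and less RNA per cell cannot be told apart. With each array's enterocyte marker mean as a covariate, 5 of the 8 were called higher, beside 8.16% of all genes in that fit: Bcs1l was lost (0.40, limma's adjusted p = 0.223) and Sdhaf1, Ecsit, Foxred1, Ndufaf1 and Ttc19 had differences of 1.52, 1.12, 0.90, 0.71 and 0.65.

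**Figure D1:**
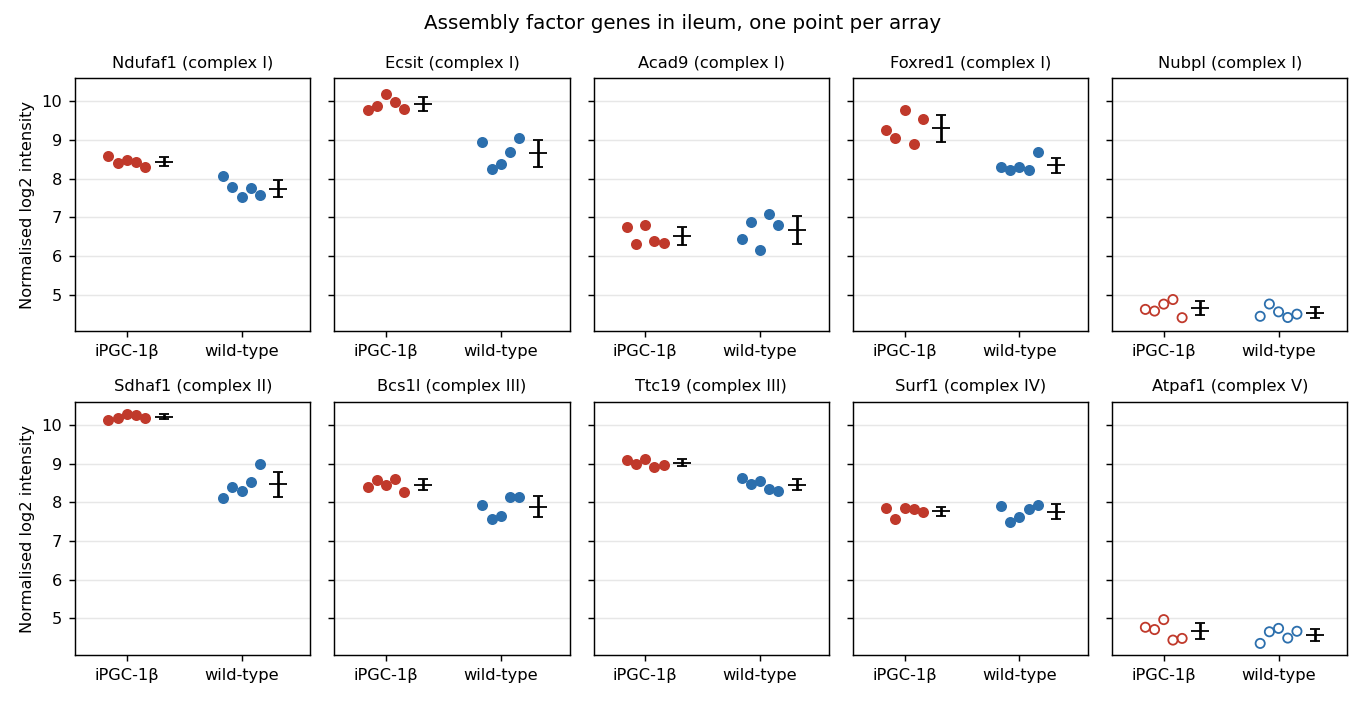
Normalised log2 intensity of the 10 genes on each array, with iPGC-1β arrays in red at the left of each panel and wild-type arrays in blue at the right; bars give the mean and SD of 5 arrays, and open points mark genes not above background on any array. The groups are apart for Ndufaf1, Ecsit, Foxred1, Sdhaf1, Bcs1l and Ttc19 and overlap for Acad9 and Surf1.

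Complex II gave the largest rise among the members. Sdhaf1 read 10.12, 10.19, 10.29, 10.25 and 10.17 on the iPGC-1β arrays, against 8.12, 8.39, 8.30, 8.52 and 8.98 on the wild-type arrays (normalised log2 intensity). The iPGC-1β arrays lay close together, while wild-type replicate 5 was the highest of its group and still far below them. Sdhaf1 was 3.34-fold higher (log2 difference 1.74 ± 0.16, SE; limma's adjusted p = 2.58e-05), which placed it 19th by p and 31st by size of rise among the 9365 genes. The raw signal of its 1 probe was 1129 to 1303 in iPGC-1β and 370.3 to 613.8 in wild-type ileum. The 3 measured structural genes of complex II rose as well: Sdhb, the subunit that SDHAF1 serves, rose 2.22-fold, Sdhc 1.74-fold and Sdhd 1.99-fold. Sdhaf1 rose more than the mean of these 3, by 0.76 ± 0.13 on the log2 scale (SE, n = 5 each). A two-sided exact permutation test over the arrays gave p = 0.00794, the lowest value such a permutation test can reach with 5 arrays against 5, or 0.0175 when adjusted over 11 comparisons of this kind. These comparisons were chosen after values were seen.

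In the MCIA complex of complex I, 2 of the 3 described genes rose and the third, Acad9, did not pass the test. Ecsit, which also encodes an adaptor of Toll-like receptor signalling, read 9.77, 9.88, 10.19, 9.99 and 9.79 in iPGC-1β ileum, against 8.95, 8.24, 8.37, 8.69 and 9.04 in wild-type ileum. The groups did not overlap, and Ecsit was 2.41-fold higher (log2 difference 1.27 ± 0.17, SE; limma's adjusted p = 0.000304). Ndufaf1 read 8.59, 8.39, 8.48, 8.43 and 8.29 in iPGC-1β ileum, against 8.06, 7.79, 7.53, 7.76 and 7.57 in wild-type ileum. Wild-type replicate 1 came nearest to the iPGC-1β arrays without reaching them, and the gene was 1.62-fold higher (log2 difference 0.70 ± 0.13, SE; limma's adjusted p = 0.00301). Acad9, whose product is also an acyl-CoA dehydrogenase, read 6.74, 6.32, 6.80, 6.40 and 6.33 in iPGC-1β ileum, against 6.45, 6.88, 6.15, 7.09 and 6.79 in wild-type ileum. The wild-type arrays spanned the whole range of the iPGC-1β arrays, with the lowest at replicate 3 and the highest at replicate 4. The log2 difference of Acad9 was -0.15 with a 95% interval from -0.55 to 0.25, and limma's adjusted p = 0.614. Its second probe differed by 0.16, with an interval from -0.20 to 0.52 and adjusted p = 0.559 by limma over all 12349 kept probes, so neither probe passed and they differ in sign.

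The differences within this trio were themselves tested on the same arrays, in pairs chosen after values were seen. The p-values therefore describe the gaps and do not test a question set beforehand. Acad9 was the dimmest of the trio. Ecsit rose more than Acad9 by 1.42 ± 0.24 and Ndufaf1 more than Acad9 by 0.85 ± 0.19 (log2, SE, n = 5 each), with an exact permutation p = 0.00794 for each, 0.0175 after adjustment. Ecsit also rose more than Ndufaf1, by 0.57 ± 0.18 (exact permutation p = 0.0159, adjusted 0.0291). This last call depends on single arrays: without any 1 of 8 arrays, all but iPGC-1β replicate 1 and wild-type replicate 5, the adjusted exact permutation p was between 0.0624 and 0.0748, with differences from 0.46 to 0.58.

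Foxred1 read 9.26, 9.04, 9.76, 8.89 and 9.54 in iPGC-1β ileum, against 8.31, 8.21, 8.31, 8.23 and 8.69 in wild-type ileum. Replicates 3 and 5 were the highest of the iPGC-1β group, and wild-type replicate 5 stood above the other 4 wild-type arrays, which lay close together. Foxred1 was 1.93-fold higher (log2 difference 0.95 ± 0.18, SE; limma's adjusted p = 0.00264). It has 5 probes, all brighter on average in iPGC-1β ileum, with log2 differences of 0.95, 0.49, 0.86, 1.23 and 0.83 from the brightest probe to the dimmest. Adjusted over all kept probes, 3 of the 5 were called and those at 0.49 (limma's adjusted p = 0.108) and 0.83 (0.0535) were not. The 2 dimmest were above background on 2 wild-type arrays each and on 5 and 4 iPGC-1β arrays. Among the iPGC-1β arrays replicate 3 was the highest for all probes except the one at 1.23, which was highest on replicate 5. The other gene of complex I, Nubpl, had raw signals of 117.1 to 129.0 in iPGC-1β and 114.1 to 144.8 in wild-type ileum, with no detection p under 0.125, so no difference is given.

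Both measured members of complex III rose by a similar amount. Bcs1l read 8.40, 8.57, 8.44, 8.60 and 8.26 in iPGC-1β ileum, against 7.94, 7.57, 7.64, 8.13 and 8.13 in wild-type ileum. The groups came close without overlap, and Bcs1l was 1.48-fold higher (log2 difference 0.57 ± 0.15, SE; limma's adjusted p = 0.0181). Without wild-type replicate 3 the difference was 0.51 and the call was narrowly lost (limma's adjusted p = 0.0502). Ttc19 read 9.10, 8.98, 9.13, 8.92 and 8.95 in iPGC-1β ileum, against 8.62, 8.46, 8.56, 8.34 and 8.29 in wild-type ileum. The groups were apart, and Ttc19 was 1.48-fold higher (log2 difference 0.56 ± 0.12, SE; limma's adjusted p = 0.00587). A second Ttc19 probe rose by 0.74 ± 0.17 (limma's adjusted p = 0.00900 over all kept probes), also with no overlap. The Rieske protein gene Uqcrfs1, whose product both factors handle, was too dim to be tested. All 6 measured structural genes of complex III rose, with differences between 0.60 and 1.26, beside 9.88% of all genes higher.

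Surf1 did not pass the test. It read 7.84, 7.56, 7.84, 7.83 and 7.75 in iPGC-1β ileum, against 7.91, 7.48, 7.63, 7.82 and 7.94 in wild-type ileum. The iPGC-1β arrays lay inside the range of the wild-type arrays. The log2 difference was 0.0092 with a 95% interval from -0.27 to 0.29, and limma's adjusted p = 0.972, while its second probe differed by 0.21 (interval -0.080 to 0.49, adjusted p = 0.320 over all kept probes). A rise as large as that of Ttc19 lies outside the intervals of both Surf1 probes. The measured structural genes of complex IV were higher on average by 0.70, and 6 of 9 rose, beside 9.88% of all genes. Among them were Cox5b, 1.81-fold higher, and Cox7a1, the heart and muscle isoform, 2.80-fold higher. Relative to the mean of the 9, Surf1 was lower by a log2 difference of -0.69 ± 0.11 (SE; exact permutation p = 0.00794, adjusted 0.0175), and the groups did not overlap. For complex V, Atpaf1 had raw signals of 110.3 to 134.7 in iPGC-1β and 116.0 to 140.3 in wild-type ileum and a lowest detection p of 0.0815. Of 14 measured subunit genes of complex V 9 rose, with Atp5f1b (listed as Atp5b), which encodes the beta subunit that ATPAF1 binds, at 0.19 and not past the test (limma's adjusted p = 0.274).

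**Figure D2:**
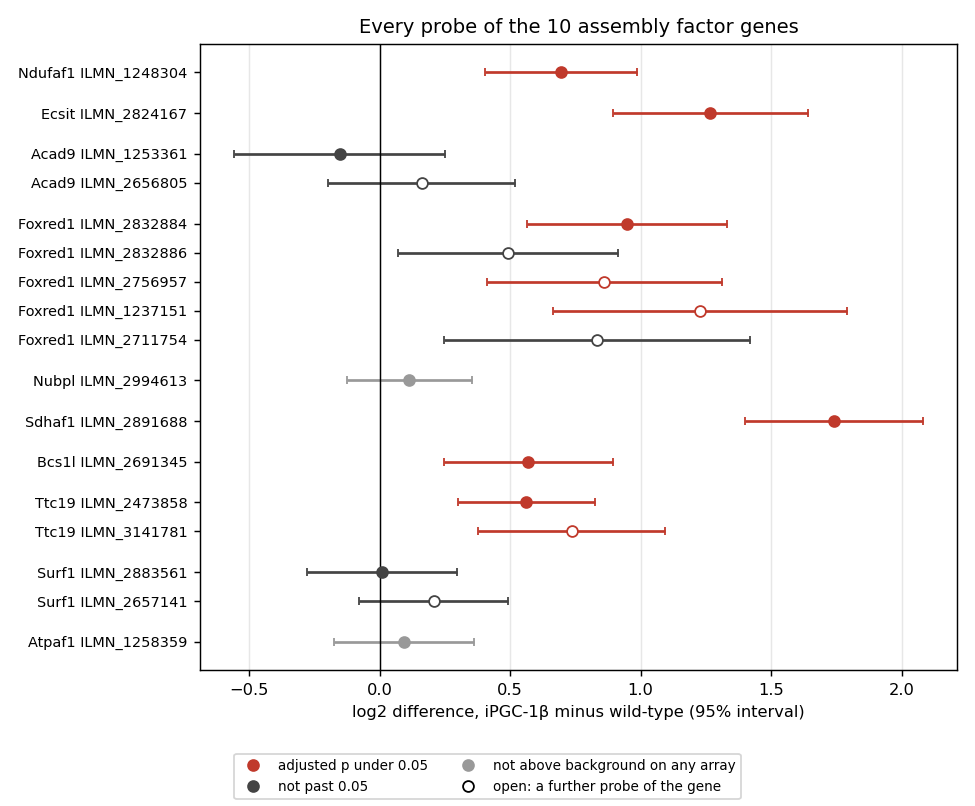
Log2 difference between iPGC-1β and wild-type ileum for each of the 17 probes of the 10 genes, with 95% intervals; filled points are the probe that stands for the gene, open points its further probes, red marks an adjusted p under 0.05 over all kept probes and pale grey the probes not above background on any array, drawn from a fit with no filter. Of the 15 kept probes, 9 were called higher and 0 lower, and 14 of the 15 point estimates are above 0. The Foxred1 probe at 1.23 (called) passed the filter only through the iPGC-1β group. The Foxred1 probe at 0.83 (not called) was above background on 4 iPGC-1β and 2 wild-type arrays and needed both groups to pass.

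Counted by probe, 9 of the 15 kept probes were higher and 0 lower, where 9.67% of all 12349 kept probes were higher and 6.31% lower. In 8 of the 15 all iPGC-1β arrays lay above all wild-type arrays, where 8.33% of kept probes did. Probes of 1 gene share their transcript and are not independent. All 9 that were called belong to the 6 genes that rose. Among the 9, the Foxred1 probe at 1.23 was above background on 5 iPGC-1β and 2 wild-type arrays. It passed the filter only through the iPGC-1β group. The Foxred1 probe at 0.83, kept but not called, was above background on 4 iPGC-1β and 2 wild-type arrays. Neither group alone would have carried it through the filter of at least 5 arrays. The 4 genes with several kept probes are Acad9, Foxred1, Surf1 and Ttc19, so Ndufaf1, Ecsit, Sdhaf1 and Bcs1l rest on 1 probe each.

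The assembly factors were next set beside the subunits they serve, in comparisons chosen after values were seen. Structural subunit genes rose in 49 of 65 measured cases, with 0 lower and a median log2 difference of 0.71, beside 9.88% of all genes higher. In complex I Ndufs3 rose 2.22-fold. The smallest adjusted p in complex III belonged to Cyc1 and Uqcrc1, which rose 2.40-fold and 2.04-fold, and in complex V to Atp5pd (Atp5h) and Atp5pb (Atp5f1), which rose 2.18-fold and 2.63-fold. By complex the mean log2 difference of the subunits was 0.86 in complex I (33 genes), 0.98 in complex II (3), 0.82 in complex III (6), 0.70 in complex IV (9) and 0.59 in complex V (14). Relative to the complex I subunits Acad9 was lower, by a log2 difference of -1.01 ± 0.19 (SE; exact permutation p = 0.00794, adjusted 0.0175). Every iPGC-1β array lay below every wild-type array in this measure, as for Surf1 relative to complex IV. With the mean of both Acad9 probes the difference from complex I was -0.85 (adjusted exact permutation p = 0.0175). Acad9 was above background on every array but dim, at 6.52 in iPGC-1β and 6.67 in wild-type ileum. The complex I subunits averaged 11.74 and 10.89. Ecsit stood above complex I by 0.41 ± 0.17, which did not pass the adjusted test (exact permutation p = 0.0556, adjusted 0.0873). Ndufaf1 differed from complex I by -0.16 ± 0.15 and Foxred1 by 0.092 ± 0.20 (adjusted exact permutation p = 0.340 and 0.659). Bcs1l and Ttc19 differed from complex III by -0.25 ± 0.13 and -0.25 ± 0.11 (adjusted exact permutation p = 0.107 and 0.0873). For these 2 the test was passed without background correction, at -0.39 and -0.36 (adjusted exact permutation p = 0.0146 and 0.0218), and with the authors' processed values, at -0.39 and -0.35. Without background correction the rises of Bcs1l and Ttc19 were themselves smaller, 0.41 and 0.45, against 0.57 and 0.56. Both genes were much dimmer than the complex III subunits, whose mean was 13.71 in iPGC-1β and 12.90 in wild-type ileum. With median centring the differences from complex III were smaller, -0.16 and -0.17 (adjusted exact permutation p = 0.369 and 0.360). With no filter they were -0.074 and -0.081 (adjusted exact permutation p = 0.611 and 0.485). Bcs1l and Ttc19 themselves still rose by 0.57 and 0.56 with no filter. The subunit mean changed, because it then held Uqcrfs1 and Uqcrq, which were too dim for the main test. Without wild-type replicate 5 Ttc19 also passed, at -0.34 (0.0125), and without iPGC-1β replicate 1 Ecsit did, at 0.52 (0.0249). Without wild-type replicate 5 and iPGC-1β replicate 3 together Ttc19 and Ndufaf1 passed, at -0.35 and -0.32 (adjusted exact permutation p = 0.0393 for both).

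**Figure D3:**
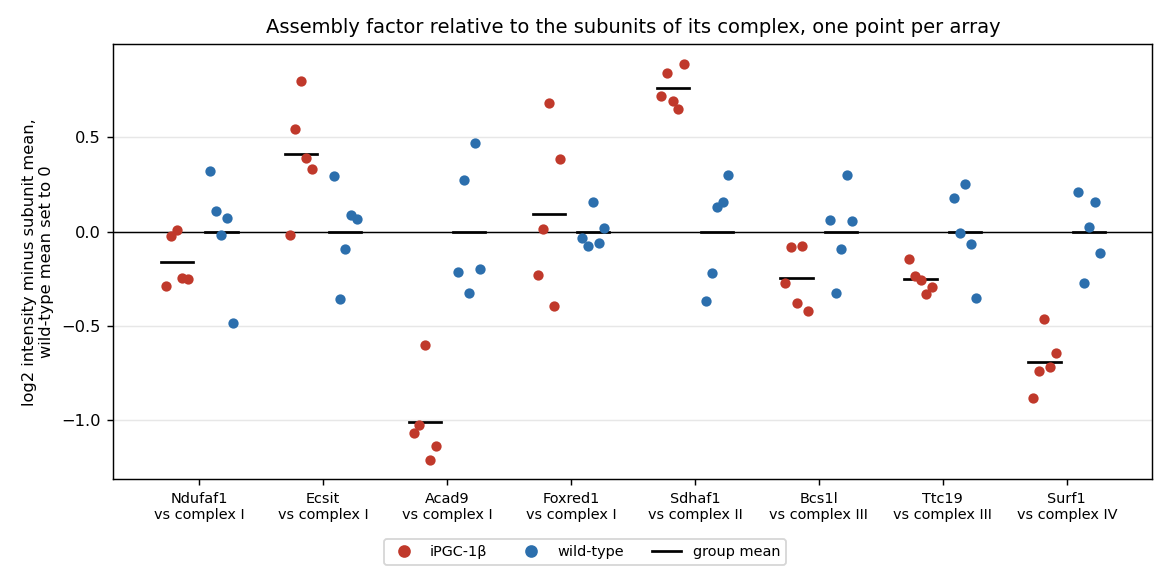
Log2 intensity of each tested assembly factor minus the mean log2 intensity of the measured structural subunits of its complex, 1 point per array, with the wild-type mean of each gene set to 0; red is iPGC-1β, blue is wild-type and lines are group means. Sdhaf1 lies above its wild-type values on all 5 iPGC-1β arrays, and Acad9 and Surf1 lie below theirs on all 5.

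Among 36 other measured assembly factors 21 rose and 0 fell, beside 9.88% and 7.41% of all genes, with a median log2 difference of 0.55. With the enterocyte mean as a covariate 9 of the 36 and 26 of the 65 subunit genes were called higher, beside 8.16% of all genes. The covariate itself differed between the groups, and standard errors were wider with it. That of Ecsit was 0.25 against 0.17 and that of Ndufaf1 0.20 against 0.13. Why calls were lost in that fit was not tested. For complex I 5 of 10 rose: Ndufaf4, listed as 1110007M04Rik, rose 2.88-fold, Dmac2 (Atp5sl) 2.42-fold, Ndufaf5 (2310003L22Rik) 2.36-fold, the supercomplex factor Cox7a2l 1.99-fold and Ndufaf7 (2410091C18Rik) 1.52-fold. Of further genes of the MCIA complex, the 3 in the lists used here did not pass: Timmdc1 was at 0.48, Tmem126b at 0.11 and Tmem186 at 0.0024. For complex II Sdhaf2 (0610038F07Rik), which attaches FAD to the catalytic subunit, rose 1.51-fold, while Sdhaf3 was at 0.017 and Sdhaf4 at 0.47 without passing. For complex III Uqcc1 (2410003P15Rik) rose 1.99-fold and Uqcc2 was at 0.0085.

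Among factors of complex IV 12 of 17 were called higher, beside 9.88% of all genes. This count and the 21 of 36 include Taco1, which passed the filter only through the iPGC-1β group, with its probe above background on 5 iPGC-1β and 0 wild-type arrays. Under the stricter filter, which drops Taco1, 20 of 35 other assembly factors were called higher, beside 13.2% of the 6917 genes in that fit. Lrpprc, which encodes a stabiliser of mitochondrial mRNAs, rose 2.98-fold, Coa5 (6330578E17Rik) 2.52-fold, and the heme A pathway genes Cox10 and Cox15 2.37-fold and 1.36-fold. Further rises were those of Cox14 (2310016M24Rik) at 1.55-fold, Coa6 (1810063B05Rik) at 1.70-fold, Cmc2 (2310061C15Rik) at 1.67-fold and Coa7 (2010305A19Rik) at 1.33-fold. The copper delivery genes Cox17, Cox11 and Cox19 rose 1.70-fold, 2.04-fold and 1.43-fold. Not past the test were Cox18 at -0.076, Cox20 at 0.043, Coa4 at 0.11, Cmc1 at 0.18 and Coa3 at 0.44. For complex V Tmem242 (5730437N04Rik) rose 1.76-fold and Fmc1 (1110001J03Rik) 1.67-fold, while Atpaf2, the chaperone of the alpha subunit, was at 0.32 and Tmem70 at 0.16. In complexes I and IV the factors ranged from -0.17 and -0.076 up to 1.53 and 1.57, so rises above 1.5 and values near 0 stand side by side in both.

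**Figure D4:**
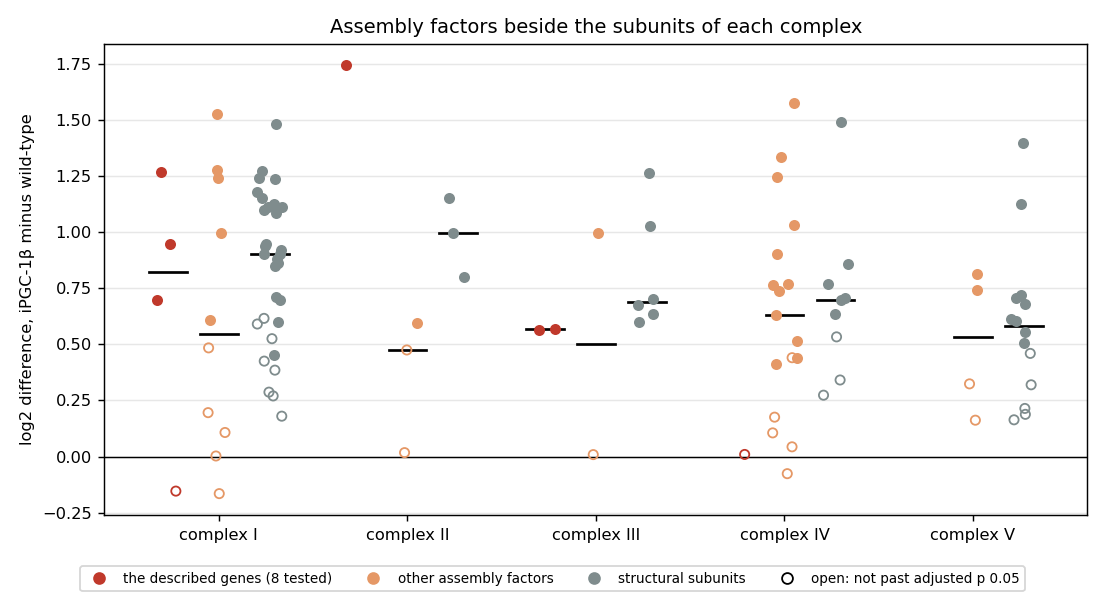
Log2 difference between iPGC-1β and wild-type ileum by complex, for the described assembly factors (red), other assembly factors (orange) and structural subunits (grey); filled points passed an adjusted p of 0.05, open points did not, and lines are medians of at least 2 genes. Sdhaf1 at 1.74 is the highest point, and Acad9 at -0.15 and Surf1 at 0.0092 lie below every measured subunit of complexes I and IV.

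Within the groups the 8 genes varied in different ways. Deviations from the group means over the 10 arrays gave 28 pairs of genes, with Pearson's r between -0.74 and 0.82 and a median of 0.26, given as a description because pairs share arrays and normalization. The closest pair was Ecsit and Surf1 (r = 0.82), followed by Ecsit and Bcs1l (0.76), and the most opposed was Sdhaf1 and Ttc19 (-0.74). Wild-type replicate 5 had the highest Sdhaf1, Ecsit, Foxred1 and Surf1 values of its group, the lowest enterocyte marker mean, at 10.77, and the highest subunit mean in each of the 5 complexes. Without this array and iPGC-1β replicate 3 together, the array with the highest enterocyte mean of its group, 6 of 8 genes were again called higher, beside 9.56% of all genes. The log2 differences were then 1.85 for Sdhaf1, 1.30 for Ecsit, 0.92 for Foxred1, 0.65 for Ndufaf1, 0.64 for Bcs1l and 0.49 for Ttc19.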

How the data were processed

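Per the file headers, the deposited values are, for 25697 probes on 10 arrays, the average intensity on a linear scale with its detection p-value. The authors' processed intensity values, from another table, are linear and share the same quantiles on every array; the method behind them is not given. The submitters' processing notes name GenomeStudio. Signals were background-corrected with normexp (negative-control parameters inferred from detection p-values, offset 16), quantile-normalized and log2-transformed (neqc, limma 3.58.1, R 4.3.3). Probes with a detection p under 0.05 on at least 5 arrays were kept (12349), and the brightest kept probe stood for each of 9365 symbols. Older symbols were matched to current ones through RefSeq's table for GRCm38.p6. Groups follow the genotype label; replicate numbers only name arrays. The labels do not say how animals, slides or batches were arranged, so p-values reflect the spread among these arrays only, which may be technical. Groups were compared with limma (lmFit, eBayes), adjusted by Benjamini-Hochberg over all genes; the fit was tested on simulated data. Comparisons of a gene with its complex, or of genes within the MCIA trio, used exact permutation tests on per-array log2 differences. All were chosen after values were seen. Members and lists were chosen with earlier results of these data known. The rule for named genes took all members, called genes of the other assembly factor lists, and for each subunit list the 2 called genes with the smallest adjusted p, except a gene that is not reported here. Further assembly factors and subunit genes named were chosen after their values were seen. Alternatives changed the background correction, normalization, filter, probe choice, variance model, covariate and arrays used.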

Additional observations from a re-analysis of the deposited data

Results flagged for a closer look

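Foxred1 on wild-type replicate 5, at a log2 intensity of 8.69, stood apart from the other 4 wild-type arrays, the nearest of which read 8.31; the gap is 0.792 of the group's range. It was the only one of 16 gene and group combinations to do so, and chance flags about 1 in 20 groups. Without this array the log2 difference of Foxred1 was 1.03, against 0.95 with it, and it passed the test in both cases.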

How the results depend on the processing

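Each result was recomputed under up to 22 alternatives: no background correction, median centring, cyclic loess, the authors' processed values, no filter, a stricter filter, all kept probes, the mean of a gene's probes, trend with robust variance, array weights, the enterocyte covariate, each array left out, and a pair left out (wild-type replicate 5 with iPGC-1β replicate 3). Ndufaf1, Ecsit, Foxred1, Sdhaf1 and Ttc19 were called higher under all 22, and Bcs1l under 20. The number of members called higher was 5 with the enterocyte covariate, 5 to 6 with an array left out and 6 otherwise, or 9 of 15 when kept probes were counted, and 0 were called lower under any alternative. Bcs1l was the member lost, with the covariate and without wild-type replicate 3. Calls over all genes were 745 higher and 768 lower with median centring, against 925 and 694. The number of all genes called lower was 1105 with array weights and 421 to 792 with an array left out, against 694 (449, 445, 421 and 458 without wild-type replicates 1, 2, 3 and 4). With the enterocyte covariate 9 other assembly factors and 26 subunit genes were called higher, against 21 and 49, where 8.16% of all genes were, against 9.88%. With an array left out the counts of the 2 lists were 15 to 21 and 46 to 52. Values near 0 changed sign, none of them called: Acad9 was at 0.0035 with the mean of its probes; Surf1 at -0.039 with median centring, -0.049 with the covariate and -0.059 to 0.060 with an array left out; Foxred1 relative to complex I at -0.034 without background correction, -0.031 with the authors' values, -0.055 with the pair left out and -0.062 to 0.21 with an array left out. The cause was not tested. The differences of Acad9 and Surf1 from their complexes, and of Sdhaf1 from complex II, passed under all 18 alternatives run for them. These comparisons, those within the trio and the Ppargc1b value were put through the alternatives after seeing the data. No paired analysis was possible because the labels give no number that ties an iPGC-1β array to a wild-type array. Genes near background, such as Nubpl and Atpaf1, are limited by signal. Acad9 was above background on every array but was also dim.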
